A study of Macaca radiata with 6 samples.

Results

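The proteasome subunits were taken as all probe sets whose single gene symbol in the platform annotation consisted of PSM, a letter from A to G and a number. That choice was made by name and not by measured values, though earlier results of these data were known. These were 65 probe sets of 32 genes, of 14133 genes named on the array. Of 48 PSM symbols sorted by role from textbook knowledge, 16 had no such probe set and are not analysed here, namely PSMA4, PSMA5, PSMA6, PSMA8, PSMB3, PSMB4, PSMB9, PSMC1, PSMD3, PSMD4, PSMD5, PSMD10, PSMD12, PSMD14, PSME1 and PSME4. A further 7 probe sets that carried a PSM symbol together with other symbols were not used.

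RNA came from corpora lutea of female bonnet monkeys (Macaca radiata), with 3 arrays in each of 2 groups. The corpus luteum is the progesterone-producing body that forms in the ovary from the ruptured follicle. The PGF2alpha group received 3 intramuscular injections of prostaglandin F2-alpha, a hormone that makes this body regress, at 59 µg per kg of body weight on day 10 of the luteal phase, and the vehicle group received phosphate-buffered saline on the same day. Tissue was taken 24 h later in both groups, and ages are not given in the labels. The question behind the comparison is how luteal transcripts differ once PGF2alpha has been given. The labels give 3 monkeys per group without tying an array to an animal, so the tests see array-to-array spread, which may be technical. The samples were pieces of whole tissue on an array of rhesus macaque sequences, so a subunit read low in both groups may also mismatch the bonnet monkey transcript. The tissue label was checked with steroidogenic markers, 6 of 9 named here and all 6 tested, with STAR, the mitochondrial cholesterol carrier, at 40200 ± 8854 in the PGF2alpha group and 63400 ± 7411 in the vehicle group (signal, mean ± SD, n = 3 each).

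The proteasome is the barrel-shaped protease that degrades ubiquitin-tagged proteins. Its core particle consists of outer rings of alpha subunits (PSMA genes) and inner rings of beta subunits (PSMB genes), of which PSMB5, PSMB6 and PSMB7 carry the cutting sites. In cells exposed to interferon-gamma, and in many leukocytes without it, PSMB8, PSMB9 and PSMB10 replace these 3, which makes the immunoproteasome and favours peptides for class I antigen presentation. The core is capped by the regulatory particle or by activators (PSME genes) that open the core without ubiquitin. The regulatory particle has a base, with the ATPase ring (PSMC genes) and some PSMD subunits, and a lid of other PSMD subunits. The PSMG genes encode chaperones of core assembly. In the corpus luteum, protein breakdown accompanies the regression of the gland.

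Signals are linear MAS5 intensities, with the same trimmed mean on every array, and array medians lay between 115 and 134. Fold changes are differences of mean log2(signal + 40), PGF2alpha minus vehicle, from limma across 26944 probe sets that lay at or above the median of their array on at least 3 arrays, with Benjamini-Hochberg adjusted p-values over all of them and a threshold of 0.05. Each gene was read from its tested probe set of highest mean signal. Of the 65 probe sets 56 were tested, and 54 of these lay above the array median on all 6 arrays, while 0 passed the filter through all arrays of 1 group only. The 9 untested probe sets had mean signals between 13.5 and 81.5, and they included the only one of PSMB11, the thymus-specific beta subunit, which had signals of 82.6, 45.6 and 109 in the PGF2alpha group and 71.3, 86.0 and 24.1 in the vehicle group. The other 31 genes were all tested. No genome was used, so coordinates are not given.

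Few proteasome transcripts passed the test. In simulated data the same fit recovered 12% of 2-fold changes, but there 200 probe sets drawn from all tested ones were changed. Those data gave 87 calls, against 1351 here, and the member probe sets were brighter than most. The 12% is therefore not the recovery for these members. PSMA3, an alpha subunit of the core, and PSME3, the nuclear activator PA28-gamma, were the genes that fell, 2 of 31 tested, and 0 rose. Across all 9980 tested genes 6.13% were called, 2.32% lower and 3.81% higher, so the members' share lay near the background. At the level of probe sets 4 of 56 were called, all lower, in PSMA2, PSMA3, PSMB10 and PSME3, against 5.01% of all probe sets called 1.99% called lower and 3.02% called higher. All PGF2alpha arrays lay below all vehicle arrays in 19 of the 56 probe sets, against 13.7% of all tested probe sets. Without an adjustment 5 of the 31 genes had p below 0.05 (16.1%), against 24.4% of all genes. Fewer cells of a type and less RNA per cell cannot be told apart in whole tissue.

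Most of the differences pointed the same way while remaining small. The log2 fold change was below 0 in 24 of 31 genes, with a median of -0.20 and a range from -1.10 to 0.56, while over all tested genes 51.9% were below 0 and the median was -0.02. All 3 PGF2alpha arrays lay below all 3 vehicle arrays in 10 genes and above them in 1, the lid gene PSMD8, against 15.1% and 15.8% of all genes. The 95% interval of the fold change, which is not adjusted for the number of genes, lay within a 2-fold change in either direction for 27 of 31 genes (87.1%), against 76.6% of all tested genes. The members were brighter than most genes, and among 5720 tested genes with mean signal in their range the share was 82.5%. The 4 genes with a wider interval were PSMB8, PSMB10, PSME3 and PSMG1.

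**Figure D1:**
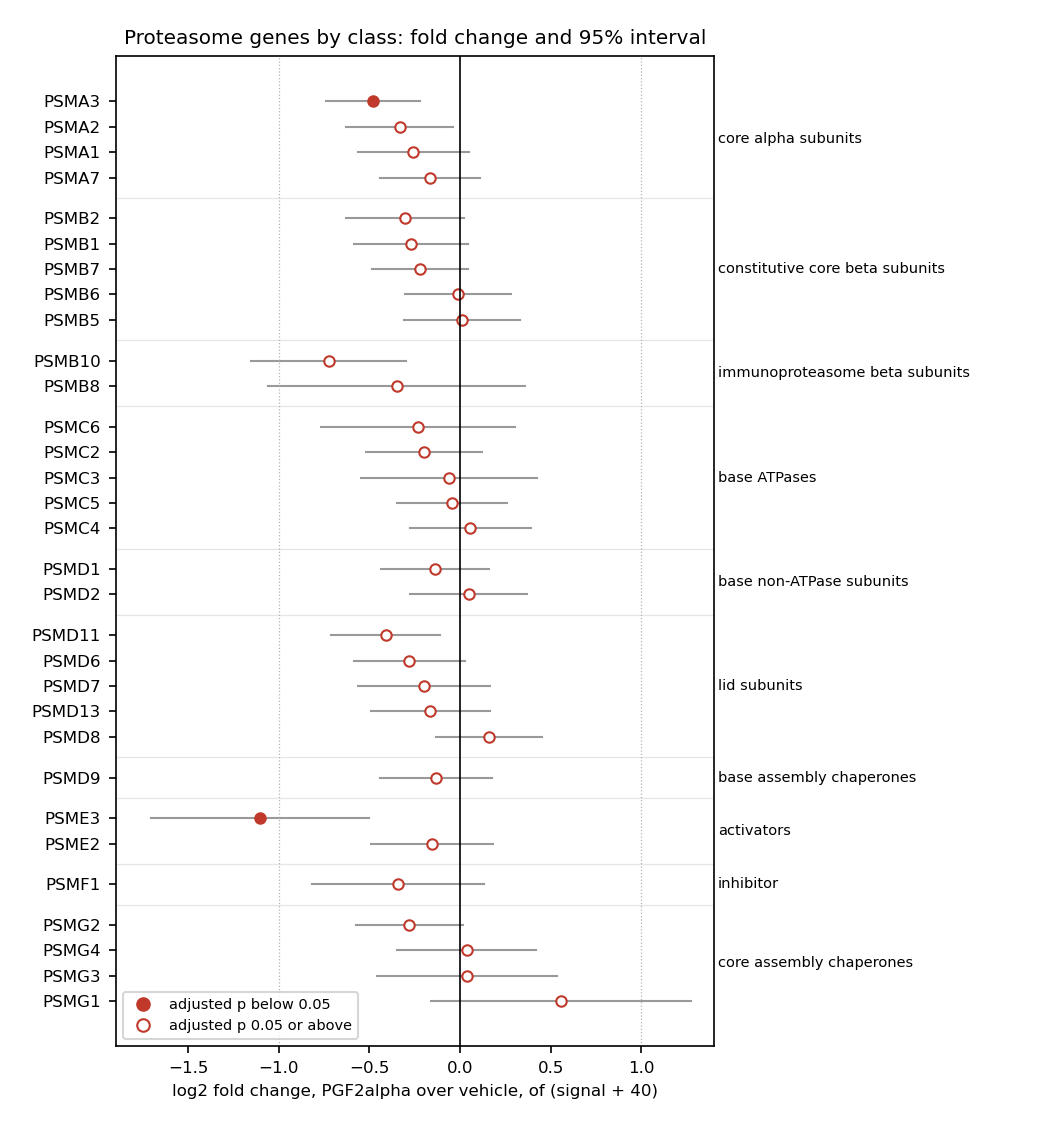
Log2 fold change of (signal + 40), PGF2alpha over vehicle, of the 31 tested proteasome genes on the horizontal axis, grouped by class down the page, with 95% intervals as bars and dotted lines at a 2-fold change. The called genes PSMA3 and PSME3 are filled, and 24 points lie left of 0.

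The alpha subunits form the outer rings of the core and gate entry to it. All 4 tested genes had fold changes below 0, with a median of -0.30, and 1 was called. PSMA3 had signals of 8650, 9166 and 9718 in the PGF2alpha group, against 12392, 13004 and 13000 in the vehicle group. Every PGF2alpha array was below every vehicle array, and the spread within each group was small beside the gap. The log2 fold change was -0.48 (SE 0.115, limma adjusted p = 0.0487), and a second probe set of the gene stood at -0.51 (adjusted p = 0.087). The call rested on a p just under the threshold, and it was lost under 11 of the 19 alternatives that have a test, over which the adjusted p ran from 0.0315 to 0.248. These included a median scaling of arrays, the hybridisation run as a block, and the omission of PGF2alpha replicate 1 or 2 or of any vehicle replicate.

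PSMA2 was measured by 5 tested probe sets, all with fold changes below 0. That of highest signal read 6321, 6511 and 6109 in the PGF2alpha group, against 8731, 7028 and 8232 in the vehicle group. The groups did not overlap there, and the log2 fold change was -0.33 (limma adjusted p = 0.185). Another probe set fell by 0.84 on the log2 scale (SE 0.151, adjusted p = 0.0188), with signals of 1618, 1616 and 1715 in the PGF2alpha group, against 3527, 2635 and 2864 in the vehicle group. The remaining 3 lay between -0.34 and -0.18 and were not called, so the called value lies apart from the other 4. The call of that single probe set was lost under 5 of the 18 alternatives that have a test. These were the omission of PGF2alpha replicate 1 or 2 or of vehicle replicate 4 or 6, with adjusted p from 0.0586 to 0.0767, and run 1 alone, with adjusted p = 0.161.

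PSMA7, the alpha subunit with the fold change nearest to 0, had signals of 12469, 14558 and 15087 in the PGF2alpha group, against 16357, 15400 and 15370 in the vehicle group. The groups did not overlap, yet the log2 fold change was only -0.17 (limma adjusted p = 0.489). In a second probe set of PSMA7 the groups overlapped, at -0.03 (adjusted p = 0.927). PSMA1 stood at -0.26 (adjusted p = 0.317), with groups that overlapped.

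Among the 5 constitutive beta subunits 0 were called, and the median was -0.22. PSMB5, the chymotrypsin-like subunit, had signals of 5086, 4584 and 5877 in the PGF2alpha group, against 4960, 4850 and 5567 in the vehicle group. The groups lay on top of each other, with a log2 fold change of 0.01 and an interval from -0.31 to 0.33 (limma adjusted p = 0.976). A second probe set of PSMB5 stood at -0.17 (adjusted p = 0.599). The caspase-like subunit PSMB6 read 4514, 4284 and 4211 in the PGF2alpha group, against 4636, 3968 and 4530 in the vehicle group, with a log2 fold change of -0.01 and an interval from -0.30 to 0.28 (adjusted p = 0.973). The trypsin-like subunit PSMB7 read 8529, 8273 and 8236 in the PGF2alpha group, against 10296, 9077 and 9841 in the vehicle group. For PSMB7 every PGF2alpha array was below every vehicle array, at a log2 fold change of -0.22 (adjusted p = 0.327).

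PSMB2 and PSMB1 are beta subunits without a cutting site. PSMB2 had the lowest fold change of the constitutive beta subunits, with signals of 5487, 5319 and 5931 in the PGF2alpha group, against 7586, 5817 and 7416 in the vehicle group. Vehicle replicate 5 lay among the PGF2alpha arrays, and the log2 fold change was -0.30 (limma adjusted p = 0.266). PSMB1 stood at -0.27 (adjusted p = 0.314), with vehicle replicate 5 likewise inside the range of the PGF2alpha arrays. Its second probe set, of low signal, read 0.15 (adjusted p = 0.819).

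The immunoproteasome was represented by PSMB8 and PSMB10. PSMB10, which replaces PSMB7, was called through its second probe set. This one had signals of 1166, 1284 and 1348 in the PGF2alpha group, against 2920, 2142 and 2985 in the vehicle group. All PGF2alpha arrays lay well below all vehicle arrays, and the signal fell by 1.05 on the log2 scale (SE 0.168, 95% interval from -1.42 to -0.67, limma adjusted p = 0.0127). The probe set of higher signal, which can cross-hybridise, read 2007, 2024 and 2868 in the PGF2alpha group, against 3901, 3141 and 4383 in the vehicle group. The groups did not overlap there either, but its log2 fold change of -0.72 was not called (adjusted p = 0.0609). PSMB10 was therefore called in 1 of its 2 probe sets, with both in the same direction. As the mean of both probe sets the gene stood at -0.89 and was called (adjusted p = 0.0259). Omitting PGF2alpha replicate 3 brought the brighter probe set to an adjusted p of 0.0234, and weighting the arrays brought it to 0.0275. It was not called when any other array was left out, with adjusted p from 0.0653 to 0.21. With median scaling its adjusted p was 0.101, and in run 1 alone 0.334. Within run 1 the called probe set stood at -0.99 and within run 2 at -1.16, where a run is a set of arrays hybridised together by the times in the scanner files. The call held under 14 of the 18 alternatives that have a test. It was lost without PGF2alpha replicate 1 or 2 or vehicle replicate 6, with adjusted p from 0.0526 to 0.0582, and in run 1 alone, with adjusted p = 0.131.

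PSMB8, which replaces PSMB5, varied widely within the PGF2alpha group. It had signals of 1270, 3414 and 1979 in the PGF2alpha group, against 2892, 2083 and 2991 in the vehicle group. PGF2alpha replicate 2 was the brightest of the 6 arrays and replicate 1 the dimmest, so the groups overlapped fully. The log2 fold change was -0.35 with an interval from -1.06 to 0.36 (limma adjusted p = 0.578). It was -0.64 within run 1 and 0.24 within run 2, which holds PGF2alpha replicate 2 and vehicle replicate 4, so the direction turned between the runs. It was -0.01 without PGF2alpha replicate 1 and -0.71 without PGF2alpha replicate 2.

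Each inducible subunit was set against its constitutive partner on the same array. With 3 arrays against 3 the exact permutation test cannot give a p below 0.1, so it could not pass the threshold whatever the values. The per-array difference of log2(signal + 40) between PSMB10 and PSMB7 was -2.07, -2.01 and -1.51 in the PGF2alpha group, against -1.39, -1.52 and -1.16 in the vehicle group, of which only the change is read because probe sets differ in brightness. The change was -0.51 (two-sided exact permutation test over arrays, p = 0.2, adjusted p = 0.4 over 2 pairs). PGF2alpha replicate 3 and vehicle replicate 5 were almost equal. With the second PSMB10 probe set the difference was -2.83, -2.65 and -2.58 in the PGF2alpha group, against -1.80, -2.06 and -1.71 in the vehicle group, a change of -0.83 without overlap between the groups (exact permutation p = 0.1, the smallest possible). For PSMB8 and PSMB5 the difference was -1.97, -0.42 and -1.55 in the PGF2alpha group, against -0.77, -1.20 and -0.89 in the vehicle group, a change of -0.36 (exact permutation p = 0.6, adjusted p = 0.6). That change became 0.35 within run 2, -0.03 without PGF2alpha replicate 1 and -0.81 without PGF2alpha replicate 2.

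Leukocytes carry immunoproteasomes, and their markers were higher after PGF2alpha. Of 15 tested leukocyte markers 10 rose and 0 fell, with a median log2 fold change of 1.39. Their summed signal was 38313, 51810 and 35395 in the PGF2alpha group, against 17370, 10299 and 15487 in the vehicle group. MRC1, the mannose receptor of macrophages, rose by 2.95, LCP1, an actin-bundling protein of leukocytes, by 2.19, CD53, a leukocyte tetraspanin, by 1.498 and CD14, the endotoxin co-receptor, by 1.23 (limma adjusted p from 0.000195 to 0.0212). PGF2alpha replicate 2, the array of highest PSMB8, also had the highest leukocyte sum, but replicate 1 stood second in that sum and lowest for PSMB8. Of 10 T and NK lymphocyte markers 3 were named and 1 was tested, the granzyme GZMA, at -0.85 (adjusted p = 0.0584), with signals of 1953, 1183 and 1940 in the PGF2alpha group, against 2616, 3584 and 2873 in the vehicle group. Steroidogenic markers had summed signals from 77766 to 141150 in the PGF2alpha group and from 159600 to 188700 in the vehicle group, and 2 of 6 tested fell, STAR by 0.67 (adjusted p = 0.0497) and CYP17A1, which makes androgen precursors, by 1.46 (adjusted p = 0.0299). Endothelial markers had a median of 0.17, with 1 of 10 called higher, the junction protein CLDN5 at 0.90 (adjusted p = 0.0266), while the TGF-beta co-receptor endoglin, ENG, stood at 0.58 (adjusted p = 0.0548). The part of these cell types in the proteasome values was not tested.

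**Figure D2:**
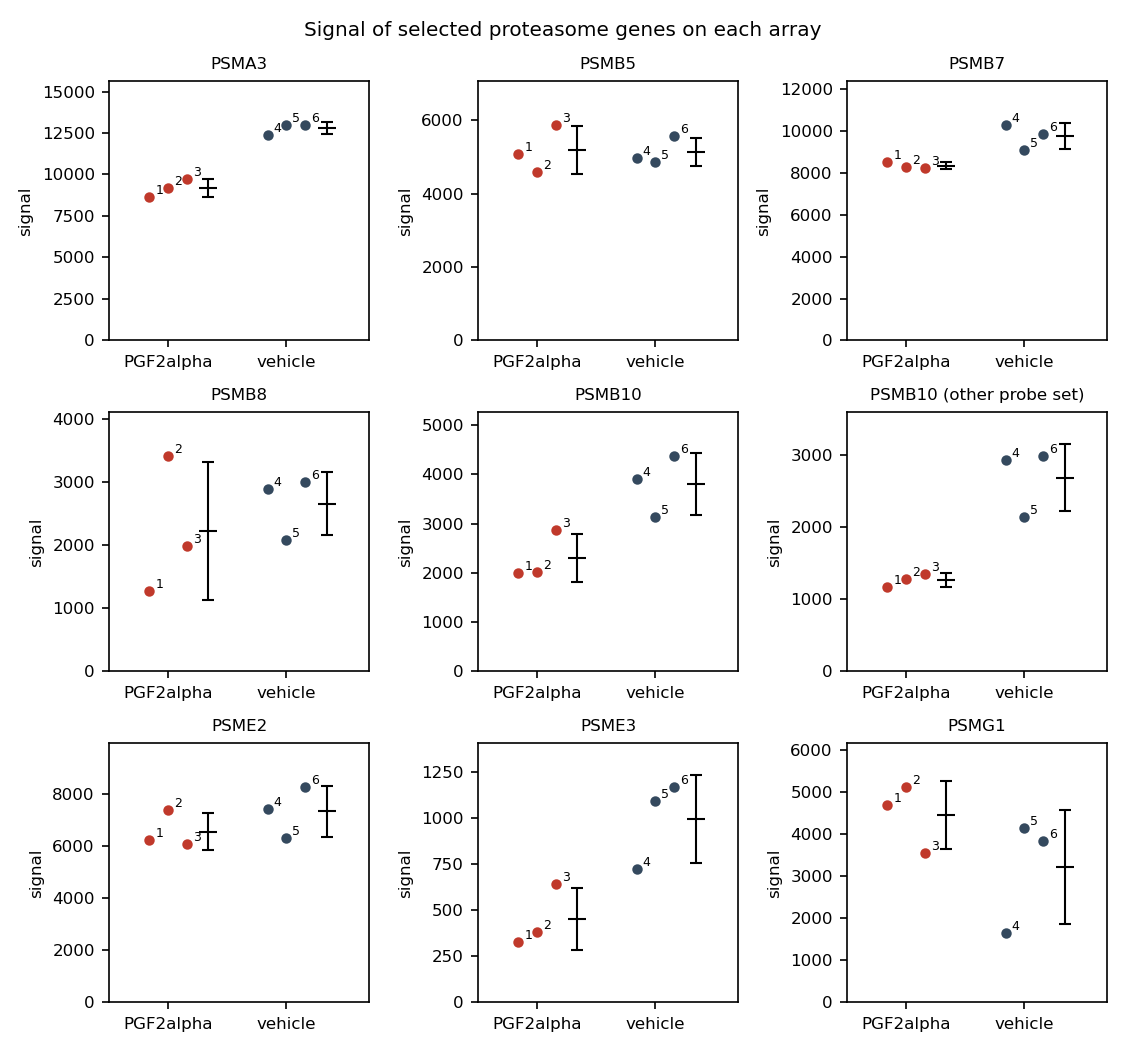
Linear signal (vertical axis, from 0) of 8 proteasome genes on each array, numbered by replicate, with PGF2alpha arrays left, vehicle arrays right, and mean ± SD as bars beside them (n = 3). PSMA3, PSMB7, PSME3 and both probe sets of PSMB10 separate the groups, whereas PSMB5, PSMB8 and PSME2 overlap, and vehicle replicate 4 stands apart for PSMG1.

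The regulatory particle unfolds substrates and removes their ubiquitin, and 0 of its 12 tested genes were called. The median over the ATPases, base and lid together was -0.15, with 9 genes below 0, and every one of the 12 intervals lay within a 2-fold change. Among the 5 ATPases of the base the median was -0.06 and the groups overlapped in each. PSMC6 had the lowest fold change of the ring, with signals of 1411, 2017 and 2220 in the PGF2alpha group, against 2463, 1574 and 2669 in the vehicle group, a log2 fold change of -0.23 (limma adjusted p = 0.63). That value was -0.04 without PGF2alpha replicate 1, -0.09 without vehicle replicate 6 and -0.46 without vehicle replicate 5. PSMC4 had the highest, with signals of 2215, 2144 and 2037 in the PGF2alpha group, against 2086, 1771 and 2318 in the vehicle group, at 0.06 (adjusted p = 0.872). The probe sets used for both can bind related transcripts. PSMC2, PSMC3 and PSMC5 lay between -0.20 and -0.05.

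PSMD1 and PSMD2 are the large scaffold subunits of the base that bind ubiquitin receptors and shuttle factors. PSMD1 read 3806, 3558 and 4001 in the PGF2alpha group, against 4443, 3808 and 4271 in the vehicle group, a log2 fold change of -0.14 (limma adjusted p = 0.606). A second probe set of PSMD1 stood at -0.34 (adjusted p = 0.44). PSMD2 read 4230, 4599 and 5452 in the PGF2alpha group, against 4652, 4275 and 4840 in the vehicle group, a log2 fold change of 0.05 (adjusted p = 0.894). The groups overlapped in both genes.

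In the lid the median over 5 genes was -0.20, and 3 genes had all PGF2alpha arrays below all vehicle arrays. PSMD11, a scaffold subunit of the lid, had signals of 1710, 1666 and 1782 in the PGF2alpha group, against 2163, 2449 and 2286 in the vehicle group. The groups were clearly apart, but the log2 fold change of -0.41 was not called (SE 0.133, limma adjusted p = 0.116). Its second probe set stood at -0.34 (adjusted p = 0.254). PSMD8 was the one lid gene with all PGF2alpha arrays above the vehicle arrays, at 3649, 3857 and 3503 in the PGF2alpha group, against 3358, 3041 and 3449 in the vehicle group. That separation was narrow, with a log2 fold change of 0.16 (limma adjusted p = 0.532), and the probe set used for PSMD8 can cross-hybridise. PSMD6, PSMD13 and PSMD7 lay between -0.28 and -0.16.

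The activators bind the ends of the core in place of the regulatory particle. PSME2, the beta subunit of the interferon-inducible activator PA28, had signals of 6229, 7380 and 6091 in the PGF2alpha group, against 7420, 6303 and 8290 in the vehicle group. The groups overlapped, and the log2 fold change was -0.16 with an interval from -0.49 to 0.18 (limma adjusted p = 0.604). PSME3 had signals of 326, 383 and 641 in the PGF2alpha group, against 721, 1093 and 1170 in the vehicle group. The groups did not overlap, though PGF2alpha replicate 3 came near vehicle replicate 4, and the signal fell by 1.10 on the log2 scale (SE 0.266, adjusted p = 0.0488). A second probe set of PSME3 was not called, with signals of 296, 297 and 246 in the PGF2alpha group, against 215, 265 and 205 in the vehicle group, at 0.26 (adjusted p = 0.501). Averaged over both probe sets the gene stood at -0.42 and was not called (adjusted p = 0.21). The call was lost under 10 of the 19 alternatives that have a test. Without PGF2alpha replicate 1 or 2 or vehicle replicate 5 or 6 the adjusted p lay between 0.124 and 0.166, and in run 1 alone it was 0.153. With median scaling, a pseudocount of 10, no filter or no variance trend it lay between 0.0507 and 0.084. PSMF1, the proteasome inhibitor PI31, read 439, 609 and 569 in the PGF2alpha group, against 544, 891 and 673 in the vehicle group, with overlap and a log2 fold change of -0.34 (adjusted p = 0.395). Its value was -0.59 within run 1 and 0.15 within run 2. Other tested probe sets of PSMF1 stood at 0.02, -0.03 and -0.39, and none was called.

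Assembly chaperones build the particles and leave them. The median fold change of the 5 genes was 0.04, against -0.26 in the constitutive core, a difference that was not tested, and 0 were called. PSMG1, which starts the alpha ring together with PSMG2, read 4692, 5125 and 3558 in the PGF2alpha group, against 1658, 4149 and 3834 in the vehicle group. Vehicle replicate 4 was far below all other arrays, and the log2 fold change of 0.56 (limma adjusted p = 0.36) was 0.03 within run 1, which lacks that array, and 1.605 within run 2. PSMG2 read 2442, 2511 and 2554 in the PGF2alpha group, against 3060, 3278 and 2819 in the vehicle group, without overlap, at -0.28 (adjusted p = 0.261). A second probe set named PSMG2, which the annotation gives a different gene ID, read 1047, 854 and 562 in the PGF2alpha group, against 404, 450 and 460 in the vehicle group. It did not overlap either and stood at 0.81 (adjusted p = 0.0717), so the fold changes under this symbol have opposite signs. PSMG3 and PSMG4 were at 0.04 each. The base chaperone PSMD9 read 3315, 3110 and 3521 in the PGF2alpha group, against 3644, 4013 and 3282 in the vehicle group, at -0.13 (limma adjusted p = 0.637). That probe set can cross-hybridise, while the other probe sets of PSMD9 stood at -0.51 and -0.39.

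Opposite signs between probe sets were not limited to PSME3 and PSMG2. In PSMB1, PSMB5, PSMC4 and PSMF1, however, every value above 0 was smaller than its SE. The highest was 0.15 in PSMB1 (SE 0.279). The share of such symbols over the whole array is not given here. Of 18 gene symbols with at least 2 tested probe sets 6 had probe sets on both sides of 0, namely PSMB1, PSMB5, PSMC4, PSME3, PSMF1 and PSMG2. The 2 probe sets named PSMG2 carry different gene IDs, so they may measure different genes. The gap between the lowest and highest fold change was widest for PSME3 at 1.36 and for PSMG2 at 1.09, followed by PSMA2 at 0.66. It was narrowest for PSMG4, PSMA3 and PSMC5, at 0.02 to 0.03. For the 12 other symbols the probe sets shared their sign. The tested probe sets of PSMA3 differ only in the suffix of their names, as do those of PSMB10. Their agreement may therefore not come from independent readings.

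**Figure D3:**
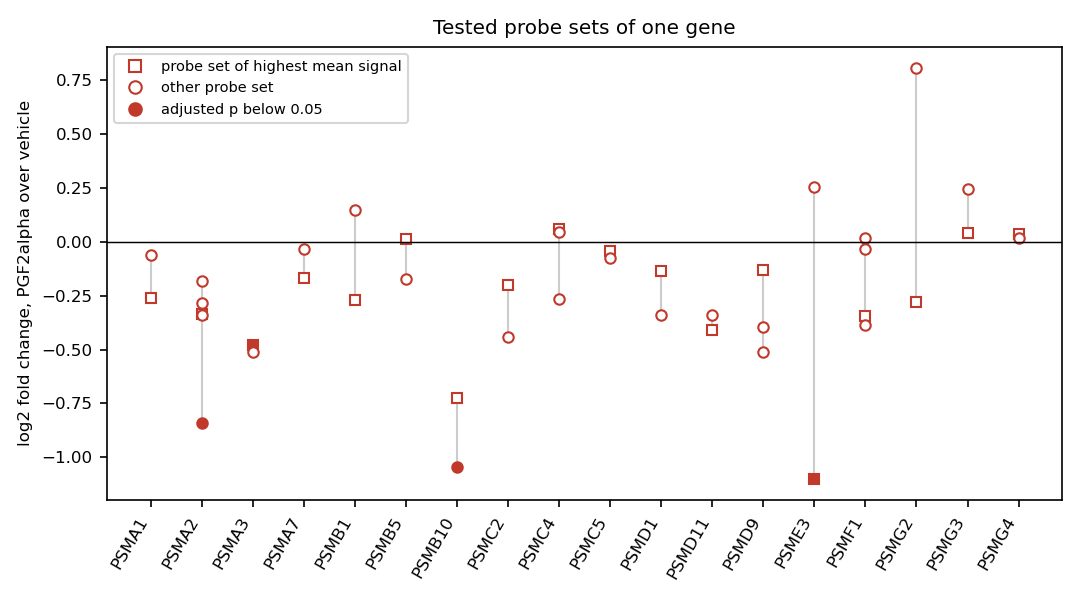
Log2 fold change, PGF2alpha over vehicle, of each tested probe set of the 18 gene symbols with at least 2. The probe set of highest mean signal is a square, the others are circles and called ones are filled. Probe sets of PSME3 and PSMG2 lie far apart on either side of 0, and those named PSMG2 carry different gene IDs. Those of PSMA3 and PSMB10 lie on the same side.

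The classes were also followed array by array. For each gene the deviation of log2(signal + 40) from its vehicle mean was taken, and the median over the 9 constitutive core genes was -0.33, -0.22 and -0.24 on the PGF2alpha arrays, against 0.09, -0.10 and 0.05 on the vehicle arrays. All 3 PGF2alpha medians of the core were thus lower than those of the vehicle arrays. For the regulatory particle the medians were -0.15, -0.11 and -0.11, against 0.05, -0.13 and 0.07, so vehicle replicate 5 lay among the PGF2alpha arrays. For the assembly chaperones they were -0.02, 0.04 and -0.05, against 0.00, 0.14 and -0.11. Over all tested genes the medians lay between -0.03 and 0.02. Vehicle replicate 5 had the lowest signal of its group in 19 of 31 genes, and replicates 4 and 6 in 6 each. Over the 31 genes the median fold change was -0.19 within run 1 and -0.19 within run 2.

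**Figure D4:**
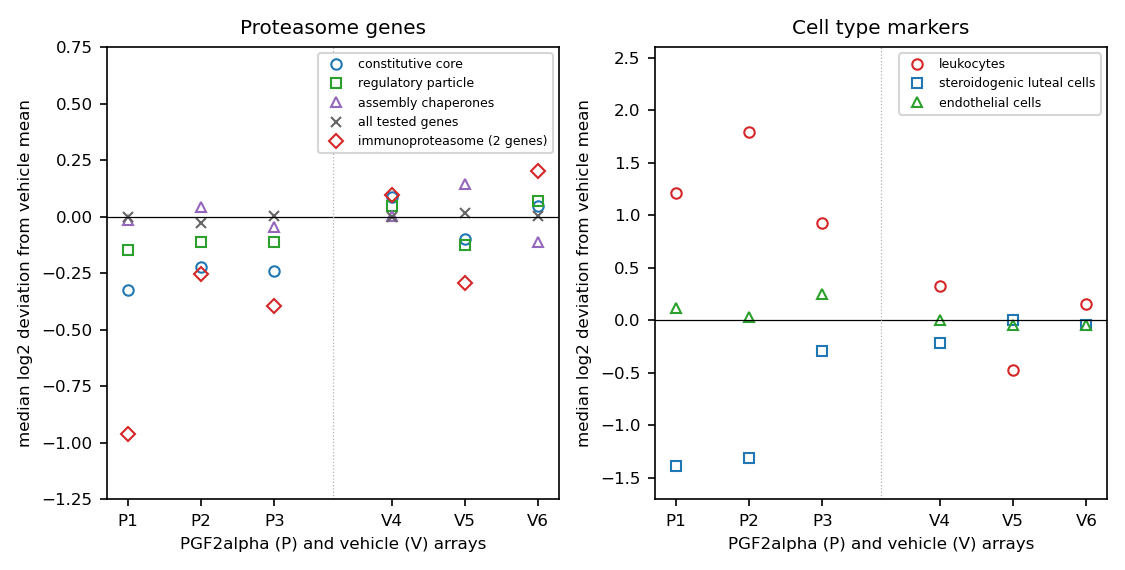
Median deviation of log2(signal + 40) from the vehicle mean on each PGF2alpha array (P1 to P3) and vehicle array (V4 to V6), for proteasome classes on the left and for cell type markers on the right, on different vertical scales. The 3 core medians of the PGF2alpha arrays lie below those of the vehicle arrays, and leukocyte markers lie above and steroidogenic markers below.

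Genes that work with the proteasome were read from lists chosen by role. Of 9 tested partners outside the PSM symbols (deubiquitinases, receptors and the small lid subunit SEM1) 0 were called, with a median of 0.01. The adaptor ECPAS, which binds the 26S proteasome, stood at 0.45 (limma adjusted p = 0.209) and PAAF1, an ATPase-binding assembly factor, at -0.25 (adjusted p = 0.478). Of 5 tested regulators of proteasome genes 0 were called, with a median of 0.02. NFE2L1, the transcription factor that raises proteasome genes when the protease is inhibited, had signals of 3569, 2664 and 3433 in the PGF2alpha group, against 2679, 3113 and 3049 in the vehicle group, at 0.12 (adjusted p = 0.725), and its partner MAFG stood at 0.37 (adjusted p = 0.269). Of 11 tested ubiquitin and shuttle genes 0 were called, with a median of 0.04, and UBQLN2, a shuttle factor, stood at 0.38 (adjusted p = 0.227). UBE2L6, the interferon-induced enzyme that conjugates ISG15, had signals of 1157, 2039 and 2812 in the PGF2alpha group, against 7033, 3216 and 6787 in the vehicle group. It did not overlap and had a log2 fold change of -1.49 (SE 0.362), just short of the threshold (adjusted p = 0.0503).

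Class I antigen processing, which takes up the peptides that proteasomes release, had 1 of 18 tested genes called, lower, with a median of -0.12. Over all tested genes 6.13% were called, 2.32% lower and 3.81% higher. The class I gene called lower was IDE, a peptide-degrading protease of the cytosol. It fell by 0.60 on the log2 scale, just past the threshold (limma adjusted p = 0.0452). Its signals were 1379, 1169 and 1405 in the PGF2alpha group, against 1993, 1958 and 2074 in the vehicle group. NLRC5, the transactivator of class I genes, which also acts on immunoproteasome genes, had signals of 610, 797 and 767 in the PGF2alpha group, against 929, 1203 and 1162 in the vehicle group. It lay lower on every PGF2alpha array without being called (-0.57, adjusted p = 0.0949). Among 9 tested interferon-gamma response genes 1 was called, the myeloid transcription factor IRF8, which rose by 1.11 (adjusted p = 0.04), and the chemokine CXCL11 stood at -0.56 (adjusted p = 0.212). GBP1, an interferon-induced GTPase chosen after its values were seen, had signals of 952, 3773 and 1554 in the PGF2alpha group, against 3005, 1832 and 3905 in the vehicle group. As for PSMB8, PGF2alpha replicate 1 was the lowest of the 6 arrays and replicate 2 the highest of its group, and GBP1 was not called (-0.63, adjusted p = 0.468). In the same list IRF1 and IDO1 had this order too, whereas JAK2, SOCS1, CXCL11, IRF8, GBP2 and CIITA did not.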

How the data were processed

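Signals were deposited by the authors as linear intensity values per probe set, made with Microarray Suite 5.0 per the labels. The arrays shared 1 trimmed mean, so no normalization was added. Of 52865 probe sets 99 controls were left out of the tests. limma 3.58.1 in R 4.3.3 (lmFit, eBayes with a variance trend, two-sided) was run on log2(signal + 40). The pseudocount makes folds of low genes too small. Symbols came from a platform annotation that can be old. Suffixes _s_at, _x_at and _a_at were taken to mark cross-hybridisation. Scanner files, which hold no expression value, gave the runs. PGF2alpha replicate 2 and vehicle replicate 4 formed run 2, and the other 4 arrays run 1. The number of arrays limits the precision.

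Members and lists were chosen with earlier results of these data known. Named were every gene with a called probe set, the catalytic and immunoproteasome subunits, PSME2, and the highest and lowest gene of each class. In the other lists the called genes, at most 4, or the 2 of smallest p were named. Pair differences were tested by exact permutation with scipy 1.17.1. The fit was tested on simulated data, where 200 of 26944 probe sets were changed. It recovered 12% of the 2-fold and 73% of the 4-fold changes. These shares hold for probe sets drawn from all tested ones, with few of them changed, and not for the brighter members. A gene not called may still have changed. The planned pair of PSMB9 and PSMB6 was not run.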

Additional observations from a re-analysis of the deposited data

How the results depend on the processing

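No paired analysis was possible because the groups share no replicate number. The number of proteasome genes called was 2 in the fit described and was 0 with arrays scaled to one median, 0 with no filter, 0 with eBayes without trend, 0 in run 1 alone, 1 with a pseudocount of 10 and 1 with the run as a block. It ran from 0 to 3 when 1 array was left out, being 0 without PGF2alpha replicates 1 or 2 or vehicle replicates 5 or 6. Over all probe sets the count was 1351, and it was 826 with no filter, 669 without trend and 51 in run 1 alone, and ran from 223 (without PGF2alpha replicate 2) to 1903 (without PGF2alpha replicate 3). The median of the member genes stayed below 0 under all 20 alternatives, from -0.23 to -0.14. The eBayes settings and the run as a block could not move this median, and the filter at the 70th percentile also left it at -0.1983. The count of called member probe sets ran from 0 to 7.

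Some values turned sign, and none of these genes was called under an alternative that has a test. Those of PSMB5, PSMB6, PSMC4 and PSMD2 were near 0 in the fit described. PSMB5 was -0.0143 with quantile normalization, -0.0378 with array weights, -0.0811 as the mean of its probe sets, -0.113 in run 2 and from -0.0828 to 0.0950 with 1 array left out. PSMB6 was 0.0366 with arrays scaled to one median, 0.0399 in run 1 and from -0.0798 to 0.0315 with 1 array left out. PSMC4 was -0.000378 with array weights, -0.0543 as the mean of its probe sets and from -0.0447 to 0.146 with 1 array left out. PSMD2 was -0.0164 in run 2 and from -0.0547 to 0.127 with 1 array left out. Larger values turned as well. In run 2, which has 1 array per group and no test, PSMB8 was 0.24, against -0.35 in the fit described. PSMF1 was 0.15 there, against -0.34, and the change of PSMB8 minus PSMB5 was 0.35, against -0.36. As the mean of the probe sets under its symbol, which carry different gene IDs, PSMG2 was 0.26, against -0.28 in the fit described. The cause was not tested.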

Other observations

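USP14, a deubiquitinase of the regulatory particle chosen after its values were seen, had signals of 25802, 11617 and 26865 in the PGF2alpha group, against 19523, 31420 and 28620 in the vehicle group. The 2 arrays of run 2, PGF2alpha replicate 2 and vehicle replicate 4, were the lowest of their groups. The log2 fold change was -0.37 (limma adjusted p = 0.545).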
